A study of Homo sapiens with 9 samples.

Results

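T-REx cells are a derivative of HEK293, a human embryonic kidney line that was transformed with adenovirus DNA, and they carry the bacterial Tet repressor so that a gene placed behind a Tet operator can be switched on with doxycycline (Dox). The data described here are the 3 libraries of the control T-REx cells, the parental line without any insertion, out of 9 libraries in the series, and they were taken by their label alone. The controls were given Dox like the derived lines, for 96 h in total with the medium renewed after 48 h, so every level below belongs to Dox-treated cells. Nothing in the labels says that the 3 libraries came from separate cultures, so their spread may be technical, and whether the line is 1 clone is not given in the sources used here. Total RNA was depleted of ribosomal RNA and made into directional libraries, and the deposited values are read counts per gene.

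A library depleted of ribosomal RNA keeps RNAs without a poly(A) tail, such as histone mRNAs, the 7SL RNA that holds the signal recognition particle together, and the small nuclear RNAs (snRNAs) of the spliceosome. A cell line keeps part of the program of the tissue it came from and gains a program of growth, so its RNA shows lineage regulators beside the machinery of DNA replication, translation and energy supply. HEK293 is the common host for expressing receptors, channels and viral vectors, and for such work it matters which receptors, sensors and channels the cells already express.

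The libraries held 18626807, 21491977 and 19081269 counts assigned to genes. A gene with 0 counts in a library may still have up to 3 counts at that depth, which is 0.161, 0.140 and 0.157 CPM (counts scaled to a common library total), and these floors cover counting error only. Levels are given as TPM, the count divided by the summed length of all exons of the gene and scaled so that all genes of a library sum to the same total. They are the mean ± SD of n = 3 libraries or the values of libraries 1, 2 and 3 in that order. A gene was taken as expressed at 1 TPM or more in each library, and as very low under 0.1 TPM in each. Across 19941 protein-coding genes Pearson's r of log2(TPM + 1) was 0.998 to 0.999 between libraries, a value over genes, which are not independent. The spread between libraries, as the common biological coefficient of variation of edgeR, was 2.68% over 18981 genes. Chi-square per gene was 1.71 to 2.49 between pairs of libraries, against the value of 1 that counting error alone gives. The libraries thus differed by more than sampling noise and were not counted as 1 library deposited more than once, though the chi-square does not tell separate cultures from separate preparations.

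The sequences of 1 structured RNA and 3 promoters are shown first, RNU1-2 because its counts were among the least even between libraries and the promoters as examples of the letters described at the end. RNU1-2 is a U1 snRNA gene at chr1:16895980-16896143 on the + strand of hg38 (exon positions of Gencode v44), and the capitals mark its letters 3 to 11, which pair with 5′ splice sites. It is read from the reference genome.
RNU1-2: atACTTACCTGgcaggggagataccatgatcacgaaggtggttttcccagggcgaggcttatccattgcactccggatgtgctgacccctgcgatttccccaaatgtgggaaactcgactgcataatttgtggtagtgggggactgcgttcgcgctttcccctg
The 250 bases before the start of EEF2 (chr19:3985464-3985713, - strand), ALB (chr4:73404037-73404286, + strand) and H1-4 (chr6:26156079-26156328, + strand) come from RefSeq on GRCh38.p14. EEF2 encodes the factor that moves the ribosome along the mRNA and ALB encodes serum albumin, and in both the capitals mark every CG pair. H1-4 encodes a linker histone, and there the capitals mark the TATAAA letters.
EEF2: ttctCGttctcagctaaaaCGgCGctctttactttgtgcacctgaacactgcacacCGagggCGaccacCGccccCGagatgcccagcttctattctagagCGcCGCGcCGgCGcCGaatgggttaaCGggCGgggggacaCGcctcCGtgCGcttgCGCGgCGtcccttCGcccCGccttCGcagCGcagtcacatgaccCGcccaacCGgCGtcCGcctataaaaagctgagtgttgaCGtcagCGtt
ALB: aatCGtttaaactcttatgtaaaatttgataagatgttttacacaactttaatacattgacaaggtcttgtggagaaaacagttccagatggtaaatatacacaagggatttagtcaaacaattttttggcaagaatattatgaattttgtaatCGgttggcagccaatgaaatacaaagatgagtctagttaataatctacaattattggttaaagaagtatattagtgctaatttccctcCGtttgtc
H1-4: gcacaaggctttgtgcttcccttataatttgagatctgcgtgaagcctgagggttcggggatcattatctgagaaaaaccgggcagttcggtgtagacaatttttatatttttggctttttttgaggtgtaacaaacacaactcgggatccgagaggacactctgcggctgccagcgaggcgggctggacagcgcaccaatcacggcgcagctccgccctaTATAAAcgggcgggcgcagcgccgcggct
The EEF2 window held 31 CG pairs and the ALB window 3, at 63.6% and 30% of G and C. The TATAAA of H1-4 began 29 bases before the start. EEF2 also has these letters, 30 bases before its start.

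Protein-coding genes took nearly all of the counts, and the class of the 7SL RNAs and the pseudogenes took a larger share per length. The share of counts in protein-coding genes was 92.5%, 92.6% and 92.3%, a mean of 92.5% ± 0.138. Per length it was 69.1% ± 1.58 of TPM. The class misc_RNA, in which the annotation puts 7SL, Y and vault RNAs, had 1.24%, 1.36% and 1.59% of counts and 16.5%, 17.7% and 19.95% of TPM, so that library 3 was highest and library 1 lowest on both scales. Long noncoding RNAs (lncRNAs) had 4.81% ± 0.130 of counts and 3.38% ± 0.156 of TPM. Pseudogenes had 1.04% ± 0.00173 of counts and 5.23% ± 0.147 of TPM, and without 1 gene, MTATP6P1, 0.668% ± 0.0122 of counts and 3.21% ± 0.157 of TPM. The snRNAs took 0.0726% ± 0.00547 of counts and 1.92% ± 0.0794 of TPM, and small nucleolar and Cajal body RNAs 0.0678% ± 0.00601 and 1.36% ± 0.0775. MicroRNA hairpins took 0.0125% ± 0.000394 of counts, which counts reads over hairpins and not mature microRNAs. The 47 genes annotated as ribosomal RNA had 1.67e-05% of counts, after the depletion, and the 496 ribosomal RNA pseudogenes 0.00110%. How reads that match several copies were counted is not stated, so these shares give no measure of the ribosomal RNA left. All 37 genes of the mitochondrial genome stood at 0 in every library, the 13 protein genes among them included. Whether the mitochondrial genome was part of the sequence the reads were mapped to is not given in the sources used here, so these zeros give no level of mitochondrial RNA.

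**Figure D1:**
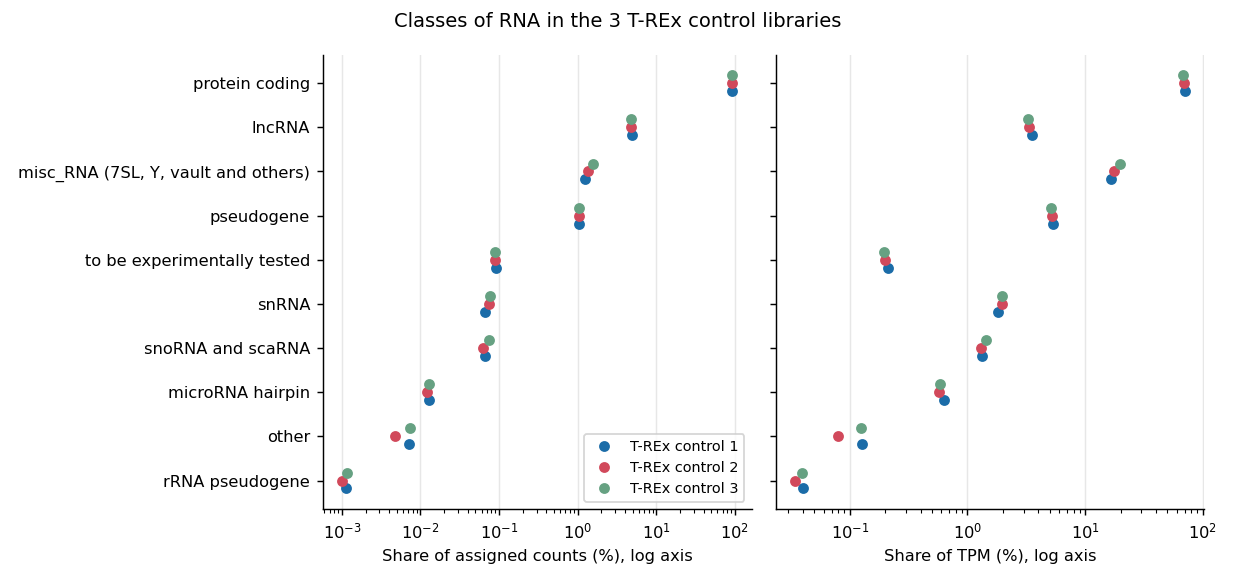
Share of assigned counts (left) and share of TPM (right) by class of RNA, in percent on log axes, with a point for each of the 3 T-REx control libraries; classes at or near 0 are not drawn. Protein-coding genes hold 92.5% of counts and 69.1% of TPM, and misc_RNA 1.40% and 18.0%, with library 3 highest in that class on both scales.

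The structured RNAs at the top of the noncoding classes come from genes with near-identical copies, so their split between copies is uncertain. RN7SL1 had 101420, 114300 and 132250 TPM, from 143696, 192073 and 203148 counts, and was the gene with the highest mean TPM of all. Library 3 had the highest level and library 1 the lowest. RN7SL5P, a 7SL copy on chromosome 9 that is 85.0% identical to RN7SL1, had 35574 ± 1850 TPM, and RN7SL3, 97.7% identical, had 14263 ± 669.6 TPM. RN7SL2 is 98.3% identical and is the other copy known to be transcribed, but it was listed at 0, and 100% of its exon bases lie within exons of another annotated gene on the same strand. RNY1 and RNY3, small RNAs bound by the Ro60 protein, had 4440 ± 428 and 639.9 ± 142 TPM. BCYRN1, a brain cytoplasmic RNA transcribed by RNA polymerase III, had 1249, 770.4 and 1223 TPM, lowest in library 2. MTATP6P1, a nuclear pseudogene copy of the mitochondrial ATP6 gene on chromosome 1 from 633696 to 634376, had 20682, 21251 and 20813 TPM, and the next such copy, MTCO1P12, 317 ± 17.1 TPM. Whether reads of mitochondrial transcripts were assigned to these copies was not tested.

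Counts of the U1 genes RNU1-2 and RNU1-4 were uneven between libraries, and those of the U4 and U5 genes less so. U1 pairs with 5′ splice sites, and the 5 U1 genes RNU1-1, RNU1-2, RNU1-3, RNU1-4 and RNVU1-18 have the same 164 bases. RNU1-2, the sequence printed above, had 341, 597 and 24 counts and RNU1-4 410, 1198 and 252 counts. Summed over the 5 genes the counts were 1046, 2162 and 622, highest in library 2 and lowest in library 3. RNU1-1 had 261, 320 and 307 counts, with no such gap. RNU4-2 and RNU4-1, the U4 genes, had 3155 ± 246 and 1394 ± 108 TPM, RNU5B-1 and RNU5A-1, of U5, 1244 ± 133 and 932 ± 129 TPM, and RNVU1-31, a variant U1 gene, 2238 ± 92.3 TPM. The RNAs of the minor spliceosome RNU4ATAC and RNU6ATAC had 461 ± 32.3 and 119 ± 24.3 TPM, while RNU12 was listed at 0. Of 23 snRNA genes on the list 18 were expressed and 3 stood at 0 (RNU12, RNU5E-1 and RNU7-1), with 100.0%, 100.0% and 98.4% of their bases within exons of another annotated gene.

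Among nucleolar and Cajal body RNAs, SNORA73B had 2563 ± 149 TPM, SCARNA7 1561 ± 299 TPM and SNORA74A 787 ± 91.9 TPM. The U3 RNA, which acts in the first cuts of the ribosomal RNA precursor, has several genes, and SNORD3C had 1129, 249 and 242 counts, with library 1 far above the others. SNORD3A had 129, 104 and 233 counts and was highest in library 3. These and RNU1-2 and RNU1-4 were 4 of the 5 genes whose SD was over 30% of the mean, out of 12336 genes with at least 100 counts on average, where the median was 3.73%. The fifth was HSPA1A, a heat shock protein gene, with 134, 98 and 200 counts. Its neighbour HSPA1B, which encodes the same protein, had 477, 478 and 470.2 TPM, close in all libraries, and the split of reads between these near-identical genes is uncertain. The next in order were EPHA10 with 75, 142 and 84 counts, the lncRNA ENSG00000260274 with 124, 102 and 76, BCYRN1, RNY3 and ZFYVE28 with 167, 169 and 103.

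MALAT1, the nuclear speckle lncRNA, was the lncRNA with the highest level, 1429, 1293 and 1308 TPM from 70666, 75806 and 70122 counts, on chromosome 11 from 65497640 to 65508073. NORAD, which binds the Pumilio proteins, had 238 ± 2.79 TPM, SNHG16 233 ± 8.45 TPM and LINC02226 238 ± 15.8 TPM. GAS5, a host gene of small nucleolar RNAs, had 133 ± 1.68 TPM, and NEAT1, the scaffold of paraspeckles, 65.9 ± 5.86 TPM. HOTAIR, transcribed within the HOXC cluster, had 52.6, 51.7 and 47.8 TPM, close in all 3 libraries, and HOTTIP, beside the HOXA cluster, 5.24 ± 0.184 TPM. MEG3, an imprinted lncRNA, was listed at 0 in all 3 libraries and H19 had 1.09 ± 0.280 TPM. TERC, the RNA template of telomerase, had 0, 6 and 7 counts. Of 16780 lncRNA genes 3419 (20.4%) were expressed, and of 26 well-known ones listed 23 were.

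Of the 19941 protein-coding genes 12758 were expressed, which is 64% and serves as the background for each list below. Another 4094 (20.5%) were very low, 3023 of them at 0 counts in all libraries, and 3089 lay between. The median of the expressed genes was 24.2 TPM, with quartiles of 10.1 and 50.6 TPM. The 1320 genes over 100 TPM were 6.62% of protein-coding genes and held 54.7% of protein-coding TPM, and 54 genes were over 1000 TPM. The 1048, 1004 and 1009 genes with the highest levels held 50% of protein-coding TPM in libraries 1, 2 and 3.

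**Figure D2:**
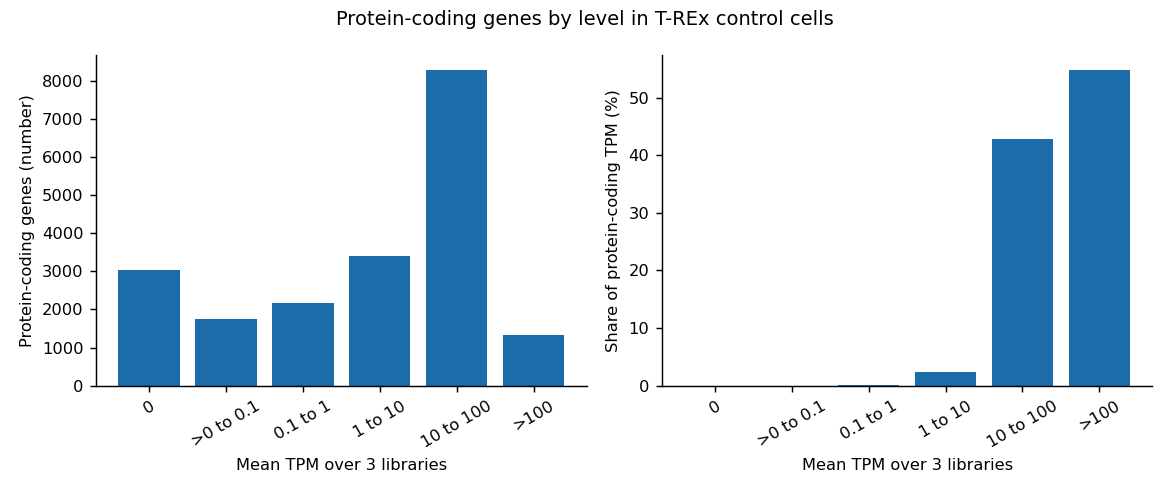
Number of protein-coding genes (left) and share of protein-coding TPM in percent (right) by class of mean TPM over the 3 libraries; bars start at 0. The class from 10 to 100 TPM has the most genes, 8269, and the 1320 genes over 100 TPM hold 54.7% of the TPM.

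Histones, translation factors, glycolytic enzymes and chaperones made up the top of the protein-coding genes. H1-2, a linker histone, had 4720, 5032 and 4864 TPM, and H1-4, whose promoter is printed above, 3691, 3789 and 4086 TPM. The core histone genes H2BC12, H3C2 and H4C5 had 3619 ± 207, 2667 ± 98.1 and 2636 ± 165 TPM. EEF2 had 3288, 3166 and 2973 TPM, RPS2, a protein of the small ribosomal subunit, 3222, 3383 and 3162 TPM, and EEF1A1, which brings tRNA to the ribosome, 2047, 2005 and 1939 TPM. In TPM library 3 was the lowest in each of these 3 genes, and it had the largest misc_RNA share of TPM, 19.95%. TPM of a library sum to the same total, so an order between libraries also depends on the other genes. GAPDH had 2581 ± 56.4 TPM and HSP90AB1, the constitutive cytosolic HSP90, 2540 ± 41.8 TPM. UBB, which encodes ubiquitin, had 2315 ± 136 TPM, PTMA, the acidic protein prothymosin alpha, 2295 ± 79.5 TPM, and TMSB10, an actin-binding thymosin, 2003 ± 93.01 TPM. By counts, which favour long mRNAs, the first 3 were EEF1A1, EEF2 and IRS4. IRS4, the insulin receptor substrate on chromosome X from 108719946 to 108736563, had 44936, 50194 and 44408 counts and 543 ± 25.7 TPM.

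Genes whose exons lie within those of another gene on the same strand were mostly listed at 0. Of 440 protein-coding genes with over 95% of their exon bases inside exons of another gene on the same strand, 83.2% had 0 counts in all libraries and 0.909% were expressed. Of 16233 genes with none shared, 14.5% had 0 counts and 64.9% were expressed. Where the shared exons lay on the opposite strand only, the share at 0 among the genes over 95% was 18.8% of 16 genes. EEF1G, a subunit of the elongation factor complex, was at 0 with 99.7% of its exon bases shared, while its partner EEF1B2 had 518 ± 21.2 TPM. RN7SK, which holds the elongation factor P-TEFb inactive, RPPH1, the RNA of RNase P, the exonuclease gene TREX1 and the DNA receptor gene TLR9 were at 0 in the same way. ALDOA, EIF4A1 and NUSAP1, chosen after their values were seen, shared part of their exons and lay under the medians of their lists. ALDOA, the aldolase of most tissues, had 14.9 ± 1.02 TPM with 42.8% shared, against a median of 103 TPM for the glycolysis list. EIF4A1, an initiation factor helicase, had 14.2 ± 0.523 TPM with 47.4% shared, against 147 TPM for the translation factors, and NUSAP1, a spindle protein, 2.61 ± 0.732 TPM with 86.8% shared, against 138 TPM for the mitosis list. H1-5, IRF7, PYCARD and RMRP were at 0 with no shared exon bases in this annotation. The annotation used for the overlap is later than that of the authors, and the part of shared exons in these zeros was not tested. Without the 974 genes with over 50% shared, 12620 of 18967 (66.5%) were expressed.

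Genes of the early nephron were mostly expressed and those of mature tubules mostly were not. Of 12 markers of nephron progenitors and the ureteric bud 10 (83.3%) were expressed, of 8 podocyte markers 4, of 10 proximal tubule markers 1, and of 10 distal tubule and collecting duct markers 0. In RNA of a whole culture, a low level in all cells and a higher level in few cells cannot be told apart. SIX2, a homeobox regulator of the nephron progenitor, had 36.5, 39.04 and 35.03 TPM, and SALL1, a zinc finger regulator of the same cells, 35.99, 34.8 and 35.9 TPM. Both varied little between libraries. OSR1, the earliest regulator of the intermediate mesoderm, had 6.14 ± 0.583 TPM, GDNF, the ligand that draws out the ureteric bud, 10.1 ± 0.937 TPM, and its receptor RET 1.51 ± 0.101 TPM. EYA1 had 7.57 ± 0.133, PAX2 4.20 ± 0.308 and LHX1 4.12 ± 0.189 TPM, but PAX8, a paired-box factor of the renal lineage, had 0, 3 and 1 counts. WT1, needed for podocytes, had 5.14, 5.47 and 5.19 TPM and PODXL, the podocyte sialomucin, 57.4, 56.7 and 56.6 TPM. LRP2 (megalin), the endocytic receptor of the proximal tubule, had 26.2, 23.2 and 22.8 TPM, and its partner CUBN 1.11, 0.711 and 0.851 TPM, which is under 1 TPM in 2 libraries. HNF4A, a regulator of the mature proximal tubule, had 1, 4 and 1 counts, and the tubule transporters SLC5A2, SLC22A6 and SLC22A8 were at 0. UMOD and AQP2 of the distal nephron were also at 0.

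**Figure D3:**
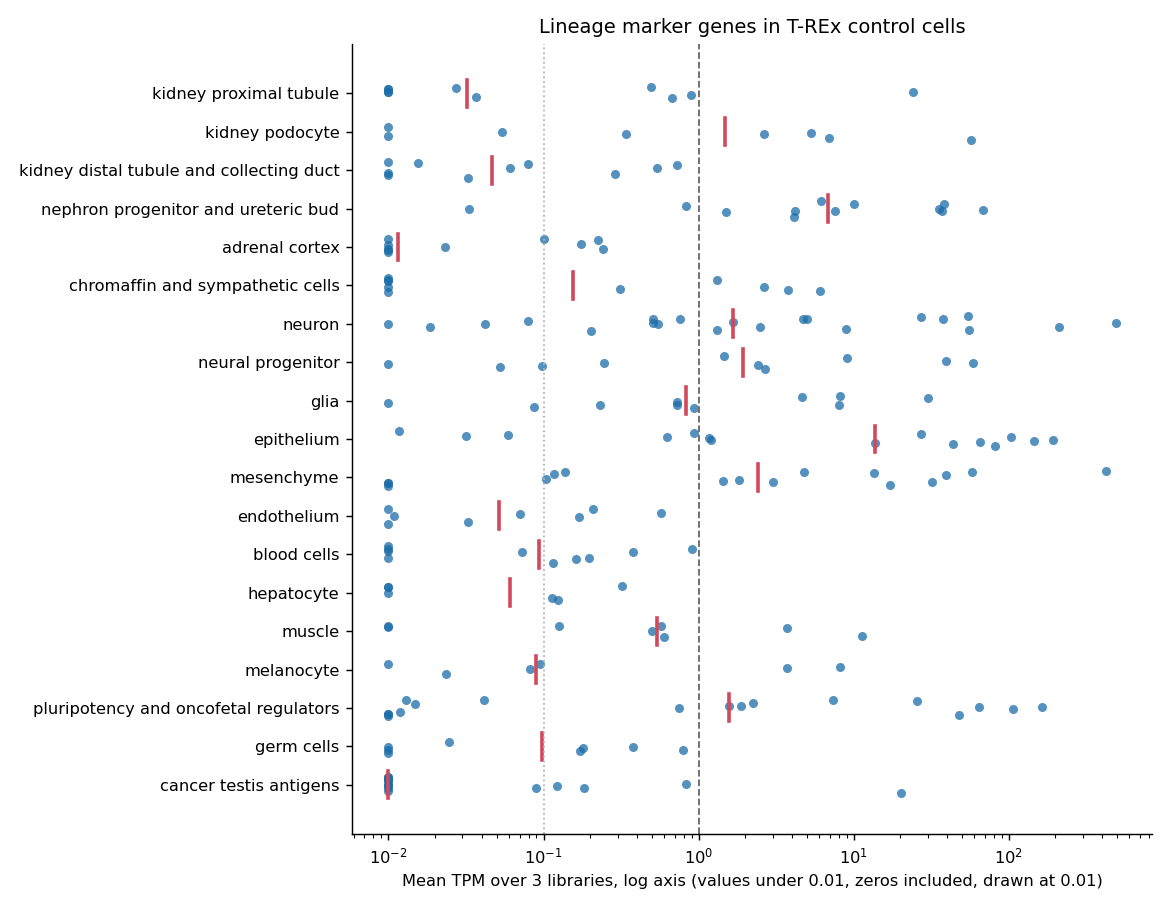
Mean TPM over the 3 libraries of each marker gene (points) in 19 lineage lists, on a log axis with values under 0.01 drawn at 0.01; red bars are list medians, the dashed line is 1 TPM and the dotted line 0.1 TPM. The nephron progenitor list lies mostly over 1 TPM (10 of 12 expressed), and the distal tubule, adrenal cortex, endothelium, blood, hepatocyte and germ cell lists have no member expressed in all libraries.

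The adrenal gland lies beside the kidney, and its genes were checked because HEK293 has been discussed as adrenal in origin. Of 10 genes of the adrenal cortex 0 were expressed, with NR5A1, its master regulator, at 2, 6 and 5 counts and the side-chain cleavage enzyme gene CYP11A1 at 0. Of 10 chromaffin and sympathetic markers 3 were expressed, namely HAND2 with 6.06 ± 0.651 TPM, CHGB with 3.79 ± 0.342 and CHGA with 2.64 ± 0.643 TPM. TH and DBH, the enzymes that make catecholamines, and the regulator PHOX2A were at 0.

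Neuronal genes were mixed, with high levels of some and at most a few counts of others. Of 21 neuron markers 12 (57.1%) were expressed, against the background of 64%. UCHL1, a deubiquitinase abundant in neurons, had 501, 497 and 476 TPM, and NEFL, the light neurofilament, 214, 217 and 204 TPM. INA, another neurofilament protein, had 54.4 ± 2.25, ENO2, the neuronal enolase, 55.4 ± 1.86, and NCAM1, a neural adhesion protein, 37.6 ± 0.701 TPM. The heavy neurofilament gene NEFH had 0.507 ± 0.0997 TPM, and DCX, a marker of migrating young neurons, had 0, 1 and 2 counts. SYT1, the calcium sensor of transmitter release, had 3, 2 and 1 counts and ELAVL4 0, 0 and 1. TUBB3, the tubulin used as a neuronal marker, had 0.510 ± 0.198 TPM, with 21.3% of its exon bases shared with another gene. Of the neural progenitor list 6 of 10 were expressed, led by MSI1, an RNA-binding protein, with 60.1, 57.5 and 57.8 TPM, SOX2 with 38.2, 40.6 and 38.7 TPM and PAX6 with 9.68, 8.89 and 8.40 TPM. SOX1 had 9, 7 and 1 counts. Of 10 glial markers 4 were expressed, with SOX9 at 30.3 ± 0.780 TPM, OLIG2 at 8.21 ± 0.693 and OLIG1 at 8.09 ± 0.553 TPM, and SOX10 at 0.

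Some epithelial and some mesenchymal genes were expressed. Of 15 epithelial markers 8 (53.3%) were expressed and of 16 mesenchymal ones 10 (62.5%), against 64% of all protein-coding genes. The mesenchymal share was close to that background. EPCAM, an epithelial adhesion molecule, had 188, 191 and 202 TPM and the keratins KRT19, KRT18 and KRT8 of simple epithelia 146 ± 3.95, 103 ± 2.64 and 81.1 ± 4.02 TPM. VIM, the mesenchymal intermediate filament, had 430.4, 427 and 405 TPM, above each of these. CDH2 (N-cadherin) had 58.7, 58.7 and 56.3 TPM and CDH1 (E-cadherin) 13.5, 14.4 and 13.1 TPM, with the ranges well apart. The repressors of epithelial genes ZEB1 and TWIST1 had 32.04 ± 1.79 and 17.2 ± 1.18 TPM and SNAI2 had 3, 3 and 1 counts. KRT7 had 0, 4 and 0 counts, and THY1, a fibroblast surface protein, was at 0. Of all 55 keratin genes 5 were expressed.

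Markers of other lineages were expressed in few cases or in none. Of 8 endothelial, 10 blood, 6 hepatocyte and 8 germ cell markers 0 were expressed. PTPRC (CD45) had 0, 2 and 0 counts, CDH5 (VE-cadherin) 0, 0 and 1, and HBB was at 0. ALB had 0, 0 and 6 counts, all in library 3, and TTR was at 0. In the muscle list 2 of 8 were expressed, ACTA2 with 11.4 ± 0.761 and MYH3 with 3.73 ± 0.654 TPM, and in the melanocyte list 2 of 6, MITF with 8.11 ± 0.655 and PMEL with 3.73 ± 0.579 TPM, while TYR was at 0.

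Oncofetal RNA-binding proteins were high and POU5F1 and NANOG, core pluripotency factors, had at most 2 counts in a library, while SOX2 was expressed as given above. IGF2BP1, which protects mRNAs of the fetal program, had 178, 164 and 151 TPM, IGF2BP2 107 ± 6.94 TPM and IGF2BP3 48.02 ± 1.88 TPM. LIN28B, which blocks maturation of let-7 microRNAs, had 67.3, 62.96 and 63.5 TPM, with its paralog LIN28A at 0, 1 and 0 counts. POU5F1 had 0, 2 and 0 counts and NANOG 1, 0 and 0. TERT, the catalytic subunit of telomerase, had 2.92, 2.13 and 1.71 TPM. Of 15 cancer testis antigens 1 was expressed, PRAME with 19.96, 21.3 and 19.7 TPM. Of the 26 genes of the MAGEA, MAGEB and MAGEC groups 0 were, and other MAGE genes were not in this set.

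The HOX genes, which set position along the body axis, were expressed almost throughout. Expressed members numbered 11 of 11 in the HOXA cluster, 9 of 10 in HOXB, 8 of 9 in HOXC and 8 of 9 in HOXD, which is 36 of 39 in all. The highest were HOXB9 with 275, 262 and 243 TPM, HOXD10 with 202, 179 and 172 TPM and HOXA13 with 173, 168 and 171 TPM. HOXD10 lay above HOXA13 in every library, but their ranges overlapped, while HOXB9 lay above all values of both. HOXA5 had 124 ± 5.48, HOXC4 114 ± 4.93 and HOXA9 114 ± 4.24 TPM. HOXD13, the most posterior gene of its cluster, had 72.8 ± 1.08 TPM. HOXD11, which acts in kidney development, had 74.7, 68.6 and 60.2 TPM. The 3 that missed the level were HOXB1 with 0, 0 and 1 counts, HOXC12 with 3, 2 and 1 counts and HOXD12 with 1.72, 0.967 and 0.755 TPM.

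**Figure D4:**
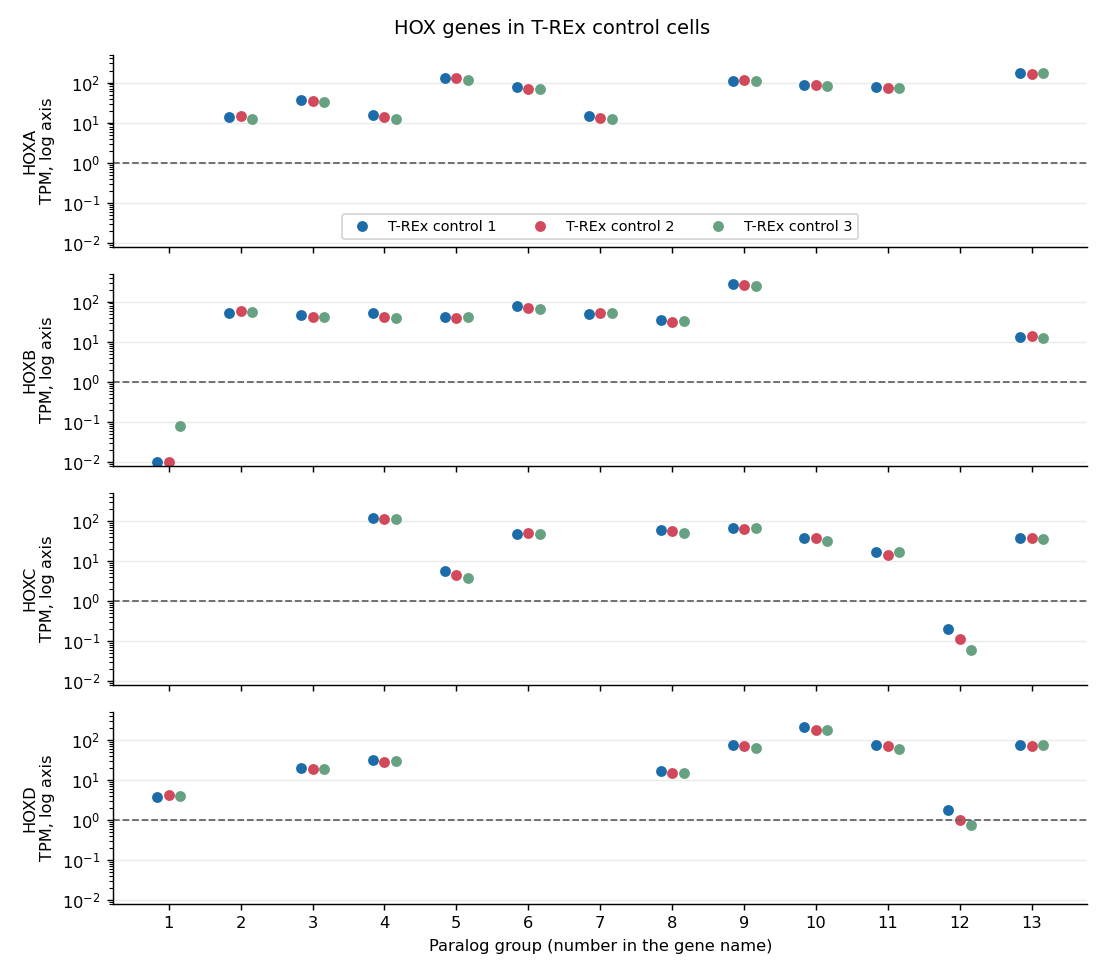
TPM of 38 HOX genes by cluster, on a log axis, with a point for each of the 3 libraries and values under 0.01 drawn at 0.01. The 10 HOXA genes drawn lie above 1 TPM in every library, and HOXB1 and HOXC12 lie lowest.

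Other regulators of development were present in part. Of 6 GATA factors 4 were expressed, GATA6 with 49.4 ± 2.20, GATA4 with 39.6 ± 2.23, GATA3 with 32.4 ± 1.27 and GATA2 with 8.15 ± 0.621 TPM, while GATA1 and GATA5 were at 0. Of 9 PAX factors 6 were, with PAX3 at 13.98 ± 0.200 and PAX9 at 13.6 ± 0.771 TPM. SOX4 had 456 ± 16.8 TPM and was the highest of 19 SOX genes, 12 of them expressed, and FOXC1 had 269.8 ± 8.92 TPM among 46 forkhead genes, 33 of them expressed. Of 48 nuclear receptors 32 (66.7%) were expressed. NR2F2 (COUP-TFII) had 100.2 ± 0.251 TPM, NR3C1, the glucocorticoid receptor, 49.7 ± 0.504 TPM and NR3C2, the mineralocorticoid receptor, 33.2 ± 2.53 TPM. The oestrogen receptor gene ESR1 had 3, 2 and 2 counts and NR1I2, the sensor of foreign compounds, 1, 0 and 1.

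Sensors of foreign nucleic acid were mixed. Of 10 DNA sensing genes 5 (50%) were expressed and of 20 RNA sensing genes 11 (55.0%), against the background of 64%. The DNA list includes TREX1 and TLR9, which were at 0 with shared exons as given above. The DNA list was led by PRKDC, the catalytic subunit of the DNA-dependent protein kinase, with 222 ± 13.2 TPM and the helicase gene DDX41 with 60.05 ± 2.46 TPM. CGAS, which makes the second messenger cGAMP on cytosolic DNA, had 0.101, 0.298 and 0.233 TPM from 2, 7 and 5 counts. STING1, the receptor of cGAMP, had 22.8, 22.4 and 22.03 TPM, above CGAS in every library. IFI16 had 2, 2 and 1 counts and AIM2 was at 0. Among RNA sensors IFIH1 (MDA5) had 8.12, 7.73 and 7.60 TPM and RIGI 1.43, 1.07 and 1.47 TPM, with 43.2% of the exon bases of RIGI shared with another gene. Their adaptor MAVS had 67.9, 67.2 and 62.4 TPM. EIF2AK2 (PKR), the kinase that stops translation on double-stranded RNA, had 90.99 ± 2.54 TPM and ADAR, which edits such RNA, 119.8 ± 5.40 TPM. OAS1 had 1, 0 and 0 counts and OAS3 3.75 ± 0.513 TPM.

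Of 15 genes of the Toll-like receptor list 3 were expressed, namely TLR5 with 1.51 ± 0.109 TPM and the adaptors MYD88 with 11.1 ± 0.980 and TICAM1 with 6.46 ± 1.05 TPM. TLR4 and TLR8 were at 0, TLR2 had 0, 0 and 1 and TLR7 0, 1 and 0 counts, and TLR3 had 0.788, 0.855 and 0.987 TPM, just under the level in each library. The inflammasome list had 2 of 12 expressed, IL18 and GSDME with 3.46 ± 0.780 and 2.79 ± 0.267 TPM, and CASP1, PYCARD and IL1B were at 0. PYCARD is among the zeros without shared exons given above. Of this list 1 member, and of the Toll-like receptor list 2, had over 50% of exon bases shared on the same strand. The part of shared exons in these low values was not tested. Interferon signalling had 16 of 18 expressed, among them IFNGR2 with 84.2 ± 3.51, IRF3 with 35.5 ± 1.44 and JAK1 with 35.5 ± 1.40 TPM. IRF7 was at 0, and it too is among the zeros without shared exons given above. Of 22 interferon genes 0 were expressed, with 20 of them at 0 counts. Of 18 interferon-stimulated genes 8 were expressed. ISG15, a ubiquitin-like protein, had 44.3, 33.04 and 31.7 TPM, highest in library 1, while the antiviral genes MX1 and RSAD2 had 0.745 ± 0.0865 and 0.103 ± 0.0599 TPM. In antigen presentation, HLA-C and B2M had 284 ± 14.7 and 214 ± 3.23 TPM, and of the class II genes CIITA, their regulator, had 2, 2 and 5 counts and CD74 0.278 ± 0.161 TPM. HLA genes resemble each other, so their split is uncertain.

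Growth and division genes were expressed as a whole. Of 30 DNA replication genes 30 were expressed and of 24 mitosis genes 24. PCNA, the sliding clamp, had 552 ± 8.42 TPM, and the helicase subunits MCM7 and MCM3 437 ± 21.7 and 416 ± 26.1 TPM. TOP2A, MKI67 and TPX2, all high in dividing cells, had 504 ± 11.6, 443 ± 25.6 and 373 ± 16.5 TPM, and CCNB1 280.0 ± 4.02 TPM. CCND2, at 223 ± 7.64 TPM, was the highest of the D cyclins, above CCND1 with 104 ± 4.14 and CCND3 with 25.3 ± 0.269 TPM. The inhibitor gene CDKN2A had 109.5, 105 and 99.5 TPM and CDKN1A, another inhibitor of cyclin-dependent kinases, 46.98, 53.2 and 50.4 TPM. MDM2, a ubiquitin ligase, had 165, 159 and 156 TPM and PMAIP1 (NOXA), which promotes apoptosis, 250.5 ± 4.04 TPM. BCL2 had 12.7 ± 0.724 and MCL1 90.5 ± 3.02 TPM. Among immediate early genes JUN had 303 ± 12.4 TPM and FOS 2.27 ± 0.113 TPM.

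Ribosomal proteins, tRNA synthetases and SR splicing factors were expressed nearly throughout, and nuclear genes of respiratory complex IV in part. Of 85 cytosolic ribosomal protein genes 83 were expressed, and the median over the genes was 527, 535 and 515 TPM in the 3 libraries. The 2 below the level were RPL3L, the muscle form of RPL3, with 6, 10 and 9 counts and RPL10L with 0, 0 and 1. The families were taken by gene name, so those of the respiratory chain hold nuclear genes alone, and the mitochondrially encoded subunits were listed at 0 as given above. For respiratory complex I all 37 genes named NDUFA, NDUFB, NDUFC, NDUFS or NDUFV with a number were expressed. This is a count of names and not of all its nuclear subunits. Also expressed were 19 of 19 nuclear ATP synthase genes, 37 of 37 tRNA synthetases and 12 of 12 SR splicing factors. ATP5F1B, the catalytic subunit of ATP synthase, had 1007 ± 22.7 TPM and TARS1 405 ± 7.49 TPM. Of 48 proteasome genes 42 were expressed, with PSMC4 highest at 331 ± 4.04 TPM, and of 19 Sm and LSm genes 18, with SNRPD2 at 646 ± 58.6 TPM. Nuclear genes of respiratory complex IV, taken by their COX names, had 10 of 16 expressed (62.5%, against 64% of all protein-coding genes) and 4 at 0. COX6B1 was the highest with 655 ± 24.5 TPM. Those at 0 were COX7B2, COX6A2, COX7A1 and COX4I2, and COX6B2 and COX8C were also not expressed. Their paralogs COX4I1, COX6B1 and COX7A2 were among the highest of the family, so the missing genes do not show that a subunit was missing. The hnRNP genes had 21 of 26 expressed and DEAD and DEAH helicases 47 of 52, with DDX17 at 403 ± 16.8 TPM. Mitochondrial ribosomal proteins had 77 of 78 expressed, with MRPL53 at 0, 0 and 1 counts and 72.8% of its exon bases shared. Of 9 chaperonin genes 9 were expressed, led by CCT7 with 714 ± 16.4 TPM. HNRNPA1, an abundant packager of nuclear RNA, had 971 ± 19.6 TPM and HSPA8, the constitutive HSP70, 774 ± 16.2 TPM.

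In metabolism all 20 glycolysis genes, all 20 genes of the tricarboxylic acid cycle, all 19 of sterol synthesis and all 19 of nucleotide synthesis were expressed. After GAPDH the highest glycolytic levels were ENO1 with 1217 ± 40.5, TPI1 with 892 ± 18.7 and PKM with 736 ± 28.96 TPM. LDHA had 378 ± 9.69 TPM and LDHB 41.9 ± 0.0675 TPM, with 33.4% of the exon bases of LDHB shared. MDH2 and CS led the tricarboxylic acid cycle with 249 ± 6.48 and 189.6 ± 3.84 TPM. HPRT1, of purine salvage, had 271 ± 7.88 TPM. SHMT2 and PSAT1 of the serine pathway had 229 ± 7.51 and 193 ± 7.67 TPM. The list of gluconeogenesis and glycogen storage had 4 of 10 genes expressed, PYGL (97.7 TPM), GYS1 and PYGB, which act on glycogen, and PCK2 of gluconeogenesis. Among the other genes of gluconeogenesis, a function of liver and proximal tubule, G6PC1 was at 0. FBP1 had 1, 0 and 0 counts and PCK1 0.715 ± 0.275 TPM. Of 14 cytochromes P450 that act on foreign compounds 3 were expressed, CYP2J2 with 11.2 ± 0.639, CYP1B1 with 6.60 ± 0.929 and CYP1A1 with 1.69 ± 0.0597 TPM. ABCC1, ABCC4 and ABCB1, pumps that carry drugs out of cells, had 73.1 ± 3.31, 52.01 ± 1.65 and 31.1 ± 0.610 TPM, and the uptake transporters SLCO1B1, SLCO1B3, SLC22A2, SLC22A6 and SLC22A8 were at 0. Of 19 UDP-glucuronosyltransferases 0 were expressed, but 9 of them had over 50% of their exon bases shared with another gene on the same strand. The part of shared exons in these low values was not tested.

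The series concerns RNA of the SMN genes, and the SMN complex loads Sm proteins on the snRNAs described above. All 10 genes of the complex were expressed. SMN1, on chromosome 5 from 70925030 to 70953942, had 46.6, 48.4 and 47.9 TPM, and SMN2, on chromosome 5 from 70049638 to 70078522, 23.1, 20.8 and 19.9 TPM, so SMN1 was higher in every library. The sequences of SMN1 and SMN2 are almost the same, so reads matching both could be split or dropped in counting, and the levels of each are uncertain. STRAP had 301, 317 and 307 TPM, above all the others, which ranged from 21.3 TPM (SMN2) to 63.2 TPM (GEMIN5). Of 18 factors known to act in the making of circular RNAs 17 were expressed. ILF2, the NF45 protein, had 599 ± 12.7 TPM, DHX9, a helicase that opens the paired repeats flanking circles, 338 ± 8.53 TPM, and QKI, which favours circles, 45.5 ± 0.463 TPM. ESRP1, an epithelial splicing factor, had 1.56, 0.839 and 1.08 TPM and missed the level in library 2. DROSHA, AGO1 and AGO2 of the microRNA pathway had 158 ± 7.76, 75.02 ± 3.41 and 59.9 ± 3.25 TPM, and of the PIWI genes PIWIL2 had 0.791 ± 0.134 TPM and PIWIL1 0, 0 and 2 counts. Among splicing factors of neurons, RBFOX2 had 60.3 ± 1.69 TPM, NOVA2 6.70 ± 0.291 and NOVA1 5.74 ± 0.559 TPM, while RBFOX1 had 1, 0 and 1 and SRRM4 1, 0 and 0 counts. PTBP1, which holds neuronal exons out of mRNAs, had 166 ± 3.57 TPM and its neuronal paralog PTBP2 22.2 ± 0.233 TPM.

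The signalling lists were largely expressed, and in the Wnt and Hedgehog lists the receptors were more complete than the ligands. Of 58 receptor tyrosine kinases 40 (69.0%) were expressed. They were led by MET, the receptor of hepatocyte growth factor, with 104, 101 and 100.2 TPM, IGF1R with 64.6 ± 5.43 and EPHB4 with 58.1 ± 2.98 TPM. EGFR had 12.7, 12.5 and 11.8 TPM, ERBB2 30.4, 30.3 and 30.6 TPM and PDGFRB 3, 4 and 6 counts. In insulin signalling IRS4 had 571, 537 and 520.2 TPM, while IRS1 and IRS2, the substrates of most tissues, had 5.44 ± 0.266 and 16.5 ± 1.06 TPM, so IRS4 was over all values of both in each library. IGF1 was at 0 and IGF2 had 0.553 ± 0.0512 TPM. Of 30 Wnt receptors and effectors 28 (93.3%) were expressed, with LGR5 at 57.9 ± 0.604 and LEF1 at 42.5 ± 1.74 TPM. Of 19 Wnt ligands 12 (63.2%) were, with WNT5A highest at 50.5, 52.5 and 48.8 TPM. All 25 genes of the TGF-beta and BMP list and all 19 of the Hippo list were expressed, ID4 with 109.7 ± 4.01 and AMOT with 102 ± 5.85 TPM. Of the Notch list 13 of 14 were, with HES1 at 152 ± 8.88 and NOTCH2 at 101 ± 5.27 TPM. In the Hedgehog list 11 of 14 were, with the ligands SHH, IHH and DHH at 2, 8 and 4, 1, 2 and 4 and 7, 3 and 5 counts and the transducer SMO at 46.8 ± 1.93 TPM.

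Receptors and channels that are often studied in these cells were expressed in part. Shares were under the 64% of all protein-coding genes for the G protein-coupled receptors, sodium channels, potassium channels and receptors of fast transmitters. They were over it for voltage-gated calcium channels (12 of 18, 66.7%), store-operated and mechanosensitive channels (17 of 21, 81.0%) and chloride channels (13 of 16, 81.25%). Of 36 G protein-coupled receptors 21 (58.3%) were expressed. F2R and F2RL1, the protease-activated receptors, had 44.6 ± 0.945 and 40.7 ± 4.71 TPM, and CXCR4, a chemokine receptor, 14.2, 15.7 and 13.6 TPM. CHRM1, OPRM1, HTR2A, AVPR2 and CASR were at 0 in all libraries, and CHRM3 had 0.320, 0.352 and 0.244 TPM. The G protein genes GNAS, GNA11 and GNAQ had 172 ± 5.13, 56.6 ± 1.68 and 40.6 ± 1.30 TPM, and GNA15, the blood cell form, 5, 2 and 2 counts. Of 17 voltage-gated sodium channel and NALCN genes 7 (41.2%) were expressed. SCN9A had 13.1 ± 0.612 and SCN8A 6.95 ± 0.513 TPM, and SCN1A had 0, 1 and 0 counts. PIEZO1, a channel opened by stretch, had 93.95, 89.5 and 83.02 TPM, and the calcium release channel RYR2 43.5, 38.3 and 38.2 TPM, while RYR1 had 0.307 ± 0.0321 TPM. The 5 subunits of the volume-regulated chloride channel, LRRC8A to LRRC8E, were expressed, LRRC8A with 44.9 ± 2.44 TPM, and CFTR had 1, 4 and 2 counts. Of 34 receptors of fast transmitters 9 (26.5%) were expressed, with CHRNA5 at 54.4 ± 1.33 and GLRB at 17.4 ± 1.24 TPM. Of 95 potassium channel subunits 33 (34.7%) were expressed, led by KCNK1 with 27.1 ± 1.56 TPM.

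Among entry receptors of viruses and viral vectors 15 of 23 (65.2%) were expressed, close to the 64% of all protein-coding genes. BSG had 353 ± 4.81 TPM, CXADR, the receptor of adenovirus and coxsackievirus, 50.4, 48.8 and 48.2 TPM, CD46 38.5 ± 0.527 TPM, and KIAA0319L, the receptor of adeno-associated virus, 20.1, 17.9 and 17.7 TPM. TMPRSS2 had 0.705, 0.675 and 0.945 TPM, and SLC10A1 was at 0. Of the matrix genes, NID1 and LAMC1 of the basement membrane had 237 ± 8.83 and 216 ± 9.39 TPM. COL6A1 had 53.4 ± 3.38 and COL4A1 33.4 ± 1.30 TPM, and COL1A2 had 1, 0 and 0 counts. ITGB1 had 95.1 ± 1.79 TPM and led 26 integrins, 16 of them expressed.

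Chromatin regulators were present and several imprinted genes absent. All 22 genes of the Polycomb list were expressed, EZH2 with 65.8 ± 3.15 and SUZ12 with 93.4 ± 2.66 TPM. DNMT1, the maintenance methyltransferase, had 112 ± 4.03 TPM, UHRF1, its partner, 169.5 ± 4.30 TPM and DNMT3L 1, 1 and 0 counts. Of 18 imprinted genes 5 were expressed. PEG10, a gene of retrotransposon origin, had 383, 377 and 359 TPM and GNAS the value above, whereas MEG3, DLK1, NDN and MAGEL2 were at 0.

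Across the 87 lists, which hold 1392 different genes, the median share of expressed members was 66.7%, close to the 64% of all protein-coding genes. In 15 lists all members were expressed and in 6 none. By theme the shares were highest for the cell cycle (97.6% of 124) and for chaperones and translation (95.7% of 47), and lowest for lineage markers (34.3% of 210) and innate immunity (50.9% of 112). Of the families taken by name, 446 of 508 ZNF zinc finger genes (87.8%) were expressed, led by ZNF711 with 601 ± 15.9 TPM. The 337 solute carriers had 199 expressed (59.0%), led by SLC25A5, the mitochondrial ADP/ATP carrier, with 762 ± 6.56 TPM, and SLC1A5, the glutamine carrier, had 400.0 ± 14.5 TPM. Olfactory receptors had 6 of 415 expressed (1.45%), among them OR2D2 with 4.10, 3.84 and 4.62, OR51E2 with 3.41, 2.39 and 1.87 and OR2W3 with 2.01, 1.32 and 3.91 TPM, with OR2W3 the least even of these 3 between libraries. Bitter taste receptors had 13 of 24 expressed, with TAS2R30 and TAS2R31 at 18.3 ± 2.25 and 18.1 ± 1.11 TPM, genes that resemble each other closely. Kinesins had 34 of 39 expressed, RAB GTPases 53 of 63, heat shock J proteins 38 of 42, cytochromes P450 17 of 56 and clustered protocadherins 12 of 53. Of these protocadherins 7 had over 50% of their exon bases shared with another gene on the same strand. Keratin-associated proteins had 2 of 94, defensins 1 of 46, killer cell receptors 2 of 18 and aquaporins 2 of 11. Chemokines had 5 of 43, interleukins 6 of 39 and claudins 4 of 24, and CXCL16 was the highest chemokine with 38.1 ± 2.51 TPM. Clustered histones had 55 of 67 expressed, with a median of 107 TPM and single genes from 0 to 4872 TPM (H1-2). Among the autosomes and X, the share of expressed protein-coding genes was lowest on X (51.1% of 857) and 11 (53.3% of 1316) and highest on 18 (72.1% of 265) and 15 (71.0% of 597).

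The letters of the promoter went with the level. The 300 bases from 250 before to 50 after the start were read from hg38 for 19920 genes, and CG pairs were counted as the ratio of observed to expected from the C and G present. Their median ratio was 0.268 for genes at 0 counts, 0.340 for genes up to 0.1 TPM, 0.452 from 0.1 to 1 TPM, 0.780 from 1 to 10 TPM, 0.877 from 10 to 100 TPM and 0.914 over 100 TPM. At a ratio of 0.6 or more were 20.6% of the first class and 96.8% of the last, against 67.5% of all. The classes share library and annotation, and genes are not replicates, so this is a description. In the printed windows of 250 bases the ratio was 1.25 for EEF2, 1.05 for H1-4 and 0.545 for ALB. TATAAA on the strand of the gene was in 16.7% of promoters at 0 counts, in 2.64% from 10 to 100 TPM and in 6.59% over 100 TPM, and in 7.09% of all. On either strand, where the other strand reads TTTATA, the shares were 22.02%, 4.04%, 8.86% and 9.66%, and the pair can overlap. Of the 67 clustered histone genes 39 (58.2%) had TATAAA on the strand of the gene, 36 of them from 40 to 15 bases before the start as in H1-4. Of the 85 cytosolic ribosomal protein genes 5 (5.88%) had it, and 98.8% had a CG ratio of 0.6 or more. The olfactory receptors had a median ratio of 0.122.

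**Figure D5:**
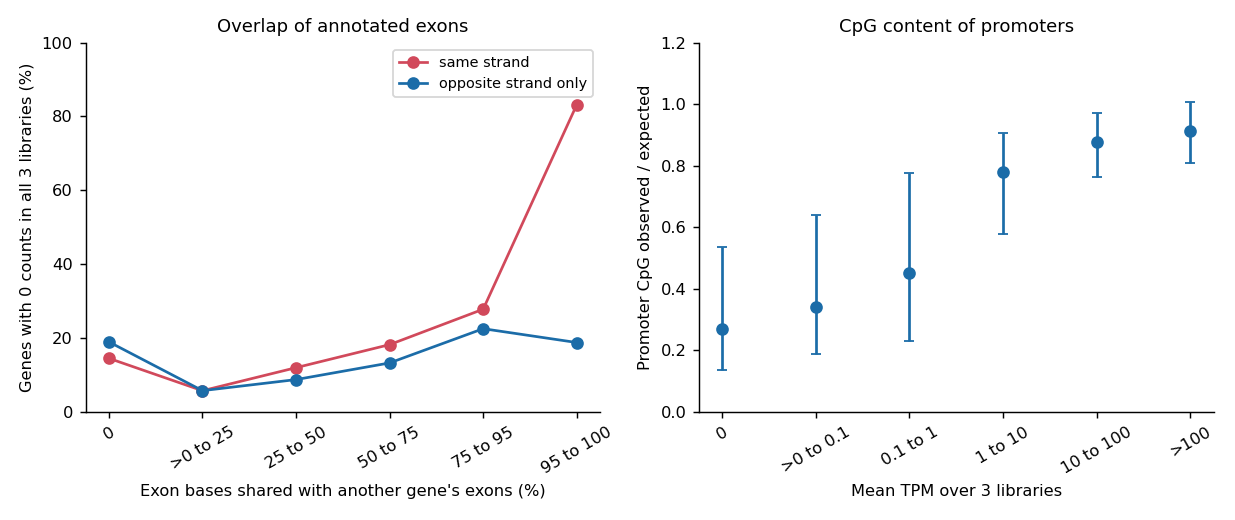
Left, percent of protein-coding genes with 0 counts in all 3 libraries by the share of exon bases inside exons of another gene, on the same strand (red) or on the opposite strand only (blue). Right, ratio of observed to expected CG pairs in promoters by class of mean TPM, as median (point) and quartiles (bars). On the same strand 83.2% of genes with over 95% shared are at 0, and the median ratio goes from 0.268 at 0 counts to 0.914 over 100 TPM.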

How the data were processed

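RNA was measured in 3 libraries of Dox-treated T-REx control cells. The authors depleted ribosomal RNA, mapped reads to GRCh38 with HISAT2, assigned them to Gencode v33 genes with featureCounts of Subread, and deposited raw read counts per gene. How strand and multiply mapping reads were handled, and the versions of these programs, are not stated in the labels or methods. The authors' DESeq2 comparisons (fold changes and p-values between lines) and the columns of the other lines were not used.

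Counts were used as deposited, with no filter. Damaged lines (3) were left out and 60648 IDs read, and 186 of these, with 0.0329% of counts, had no match in Gencode v44, which gave names, classes and lengths. The ID without its version was matched. TPM were computed from the summed length of merged exons. The count of 0 allows up to 3 counts per library. Depth, from 18626807 to 21491977 counts, sets the precision. The spread between libraries was estimated with edgeR 4.0.16 in R 4.3.3 (intercept only, TMM scaling, genes with a mean of at least 10 counts) and tested on simulated data. There is 1 group, so no comparison was tested. Further steps used pandas 2.3.3, numpy 2.4.6, pysam 0.24.0, Biopython 1.88 and matplotlib 3.10.9 under Python 3.11.15.

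The members and the 87 gene lists and 35 families were chosen with earlier results of these data known. Genes named are the 6 highest of a list, members the list is known for that are very low, the 3 highest of a family, the 20 protein-coding and 15 other genes of highest level or count, SMN1 and SMN2, the 10 most variable genes with at least 100 counts, and the ends of each class, with only a part of these printed. Genes named for exons shared with another gene, and members of a list outside its 6 highest, were chosen after their values were seen. The printed promoters come from RefSeq (GRCh38.p14), and the promoter features from hg38 at the start of the Ensembl canonical transcript, since the RefSeq table held too few of the genes. Genes that mark chromosomal sex and some other members of the lists are not reported here. Alternatives were a level of 0.5 TPM or of 10 counts, other gene lengths, TPM over protein-coding genes, shares of TPM, RLE scaling, no filter and each library left out. The canonical transcript length, the limit on shared exons and the pseudogene share without MTATP6P1 were chosen after seeing the data.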

Additional observations from a re-analysis of the deposited data

How the results depend on the processing

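No paired analysis was possible because the results come from no test and from 1 group. Of 51 recomputed values 37 moved by less than the spread between libraries, or for counts of genes by less than 1.5 times, and 14 moved by more. The number of expressed protein-coding genes, 12758, was 12620 to 13364 over the alternatives, highest with at least 10 counts in each library and lowest without genes with over 50% of exon bases shared. It was 12814 to 12860 with a library left out. The protein-coding share of 92.47% became 69.12% of TPM and 93.76% of counts without 7SK, 7SL, RNase P and MRP RNAs, and it was 92.41 to 92.55% with a library left out. The misc_RNA share of 1.395% became 18.04% of TPM and 0.02398% without those RNAs, and 1.300 to 1.474% with a library left out. The lncRNA share became 3.382% of TPM, and 4.735 to 4.855% of counts with a library left out. The pseudogene share of 1.038% of counts and 5.234% of TPM became 0.6682% and 3.209% without MTATP6P1, and was 1.038 to 1.039% and 5.164 to 5.311% with a library left out. The top 10 genes held 5.973% of counts, 21.16% of TPM and 2.692% when protein-coding genes alone were ranked, and 5.906 to 6.019% with a library left out. The spread between libraries of 2.684% was 2.062 to 3.149% with a library left out, lowest without library 1. At 0.5 TPM the median share of expressed members over the gene lists went from 66.67% to 73.33%. The median of cytosolic ribosomal proteins, 525.2 TPM, was 677.1 TPM with the longest transcript as the length, 1095 TPM with the canonical transcript and 760.0 TPM over protein-coding genes alone, and 520.6 to 530.5 TPM with a library left out. These changes follow from the length or total used as divisor, so TPM compare genes within one definition of length only. With the longest transcript 8 of the 87 lists changed their count, by at most 2 members, and at 0.5 TPM 36 did. Depth limits calls for genes under about 0.1 TPM, where 1 count in a gene of 2 kb is worth 0.0890 to 0.106 TPM.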
